A study of Homo sapiens with 6 samples.

Results

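Chaperones of the cytosol and of mitochondria were followed in M14, an established human melanoma cell line, grown adherent (2D, 3 libraries) or without attachment as floating melanospheres (3D, 3 libraries). The members were chosen from a list of 45 genes of heat shock proteins, their co-chaperones and chaperonins, by symbol, as those with a row in the deposited table of 26748 genes. A row was found for 44 of them, and HSF1 was not analysed here. The study asked how the cell populations of the adherent and the sphere culture differ, with an interest in putative cancer stem cells. Both groups are the same line, the labels name no treatment, time or genetic change for either, and the culture form is the difference they give. Values are normalised counts, that is, reads of a gene divided by 1 scaling factor per library.

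Heat shock proteins keep other proteins folded. HSP70 binds exposed stretches of unfolded chains, J-domain proteins (HSP40) bring it clients and trigger its ATP hydrolysis, and HSP110 and BAG proteins release the spent nucleotide. HSP90 takes partly folded kinases and receptors over from HSP70 with the help of its own co-chaperones. Small heat shock proteins hold unfolding proteins without ATP, the CCT ring folds actin and tubulin, and HSP60 with HSP10 folds proteins inside mitochondria. The heat shock factors HSF1 and HSF2 switch many of these genes on through the heat shock element, inverted GAA units upstream of the gene.

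Promoters bear on this set because HSF-controlled genes are known to share that element. Of the 44 members, 40 matched a RefSeq promoter window (GRCh38.p14), which runs from 250 bases before to 50 bases after the start. Only 1 window was searched per member, so other start sites of a member were not covered, while the background counts every listed window. A run of 3 inverted units, GAANNTTCNNGAA, was searched on both strands and was found in 4 of the 40 windows (10%), against 0.490% of 35116 windows of the same length. The 4 are CHORDC1, HSPA8, DNAJB6 and DNAJA1. Matches of 2 units, TTCNNGAA, which include those of 3, stood in 6 members (15%) and in 7.74% of all windows. A motif of the ATF4 response, TGATGNAA, stood in 1 member, HSPA4L (2.5% against 3.62%). DNAJA1 held its match just after the start. The matches before the start are printed 5′ to 3′ on the strand of the gene for the other 3 genes, with the matched bases in capitals and a few bases on each side, at most 30 in all. They were chosen by position alone, and a link between the matches and the changes in level was not tested. CHORDC1 held 3 overlapping matches in 1 run that begins 60 bases before the start.
CHORDC1 (chr11:90223084-90223112, minus strand): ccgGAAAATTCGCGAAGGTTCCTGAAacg
HSPA8, far site (chr11:123062346-123062374, minus strand): gcgagcttGAAAGTTCCAGAAcgctgcgg
HSPA8, near site (chr11:123062171-123062199, minus strand): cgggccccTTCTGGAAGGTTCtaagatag
DNAJB6 (chr7:157336865-157336893, plus strand): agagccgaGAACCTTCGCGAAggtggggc
The sites of HSPA8 begin 230 and 55 bases before the start and that of DNAJB6 begins 131 bases before it. In GENCODE 29 the sites of CHORDC1 and HSPA8 lie wholly or in part within 5′ untranslated exons of other isoforms. The DNAJB6 site also lies inside its annotated gene, which starts at base 157335381. A match is a description of these letters only.

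The libraries held 16567763 to 19954987 reads assigned to genes, and 0.914% to 1.40% of these fell on the 44 members. 2D replicate 3 stood apart from the other adherent libraries: across 15598 genes its log2 values correlated with theirs at r = 0.943 and 0.945, against 0.984 between those 2, and with the spheres at 0.928 to 0.935. In 3D, replicate 2 correlated with the others at 0.966 and 0.967, and those at 0.987. No pair of libraries differed by less than sampling noise (mean chi-square per gene of at least 9.83). Pigment cell markers were thin for a melanoma line. SOX10, MLANA, TYR, TYRP1 and S100B had at most 37.0 normalised counts in any library, and TYR, TYRP1 and S100B were at 0 in 2 of the 3D libraries. MITF, at 1131 ± 215 in 2D and 288 ± 19.0 in 3D (SD, n = 3 each), and DCT fell. DCT averaged 70.0 in 2D and 0.619 in 3D, and it reached the mean of 10 needed for testing only through 2D. PMEL went the other way, at 323, 227 and 753 in 2D and 1215, 620 and 1377 in 3D. Its log2 change was 1.41 (limma, adjusted p = 0.053). The 8 pigment markers summed to 1596 to 1873 in 2D and 910.2 to 1666 in 3D. Of 6 epithelial markers with a row (summed 25644 to 65884 in 2D, 33899 to 44945 in 3D), EPCAM and CDH1 fell. CDH1 averaged 92.3 in 2D and 5.62 in 3D, and it too reached the mean needed for testing only through 2D. KRT5, too low to be tested, had 0.953, 0 and 0 in 2D and 8.35, 1.94 and 9.29 in 3D. KRT8 was highest in 2D replicate 3 (44355 against 13270 to 28676 elsewhere). Of 5 fibroblast markers with a row (2042 to 6547 in 2D, 9263 to 12212 in 3D), COL3A1 rose and DCN and THY1 were at or near 0. The part of these markers in the chaperone values was not tested. In bulk RNA, fewer cells of a kind and less RNA per cell cannot be told apart.

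With all 6 libraries, few chaperone genes passed the test between the cultures. Of the 44 members, 0 passed as higher in the spheres and 2 as lower (limma, with p adjusted over 15598 genes by Benjamini-Hochberg and a threshold of 0.05), while 12.5% of all genes tested were higher and 11.6% lower. CHORDC1, an HSP90 partner, and HSPA9, the HSP70 of mitochondria, were the members that fell. At an unadjusted p under 0.05, 3 members were higher and 6 lower, against 20% and 20.3% of all genes. The edgeR quasi-likelihood test also called 0 members higher and 2 lower, where it called 12.5% and 11% of all genes. DESeq2 called 1 member higher (HSPB1) and 4 lower (CHORDC1, HSPA9, HSPA13 and CRYAB), and 15.5% and 14.9% of all genes. With every library scaled to the same total, 1 member was higher and 1 lower, against 15.3% and 8.03% of all genes, so that 65.6% of the genes called were higher there and 51.8% with the deposited scaling. The median log2 change was -0.03 over the members and -0.02 over all genes tested, and 47.7% of members and 48.8% of all genes had a change above 0. In 2 members (DNAJB6 and BAG1) every sphere library was above every adherent one, as in 20.5% of all genes, and in 5 (CHORDC1, HSPA9, HSPA4L, DNAJA4 and CRYAB) every sphere library was below, as in 22.6% of all genes.

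**Figure D1:**
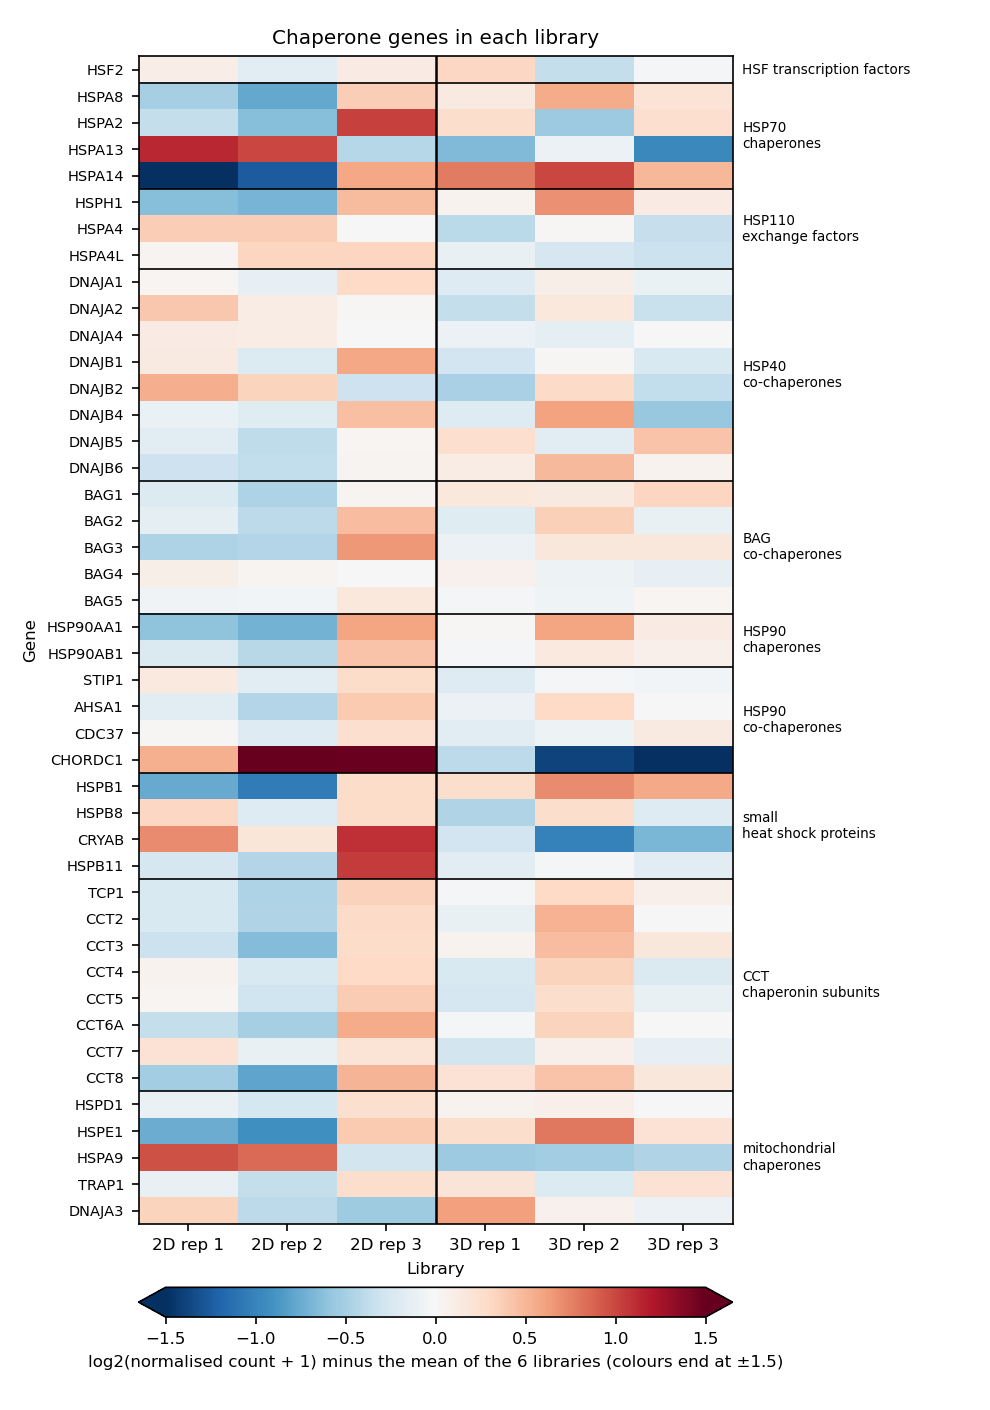
Level of the 44 chaperone genes (rows, grouped by role) in each library (columns), as log2(normalised count + 1) minus the mean of the 6 libraries; colours end at ±1.5. In 2D replicate 3, 33 of the 44 genes are above both other adherent libraries, and CHORDC1 is the row with the strongest contrast between the cultures.

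The adherent group was split. In 2D replicate 3, 33 of 44 members lay above both other adherent libraries (75%, against 42.6% of all genes tested) and 35 lay nearer to the mean of the spheres than to the mean of the other adherent libraries (79.5% against 52.4%). With each gene's log2 level set to average 0, the members' mean was -0.07, -0.23 and 0.32 in the 3 adherent libraries and -0.06, 0.12 and -0.09 in the 3 sphere libraries, by replicate. The library was the highest of all 6 for 20 members, or 45.5%, against 17.6% of all genes tested. With it left out, 13 members were higher and 4 lower in 3D, where 22.6% of all genes were higher and 23% lower, and the members' median log2 change was 0.23 against -0.01 over all genes. The difference between the members' shares and these backgrounds was not tested. None of the 13 that rose passed with any other single library left out. Leaving out 2D replicate 2 instead gave smaller changes than all 6 libraries did, such as 0.36 for HSPA8, 0.25 for HSP90AA1, 0.28 for CCT8, 0.25 for CCT3, 0.0039 for CCT6A and 0.0556 for TCP1. Values below are therefore given for all 6 libraries and, for genes that passed without 2D replicate 3, also without it. That library was singled out in these same data. Leaving it out widens the gap for every gene in which it lies toward the spheres. It also leaves 2 adherent libraries that are much alike (r = 0.984), which favours small standard errors. Rises and falls in that fit are thus descriptions and not independent support. The cause of the distance of 2D replicate 3 was not tested.

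**Figure D2:**
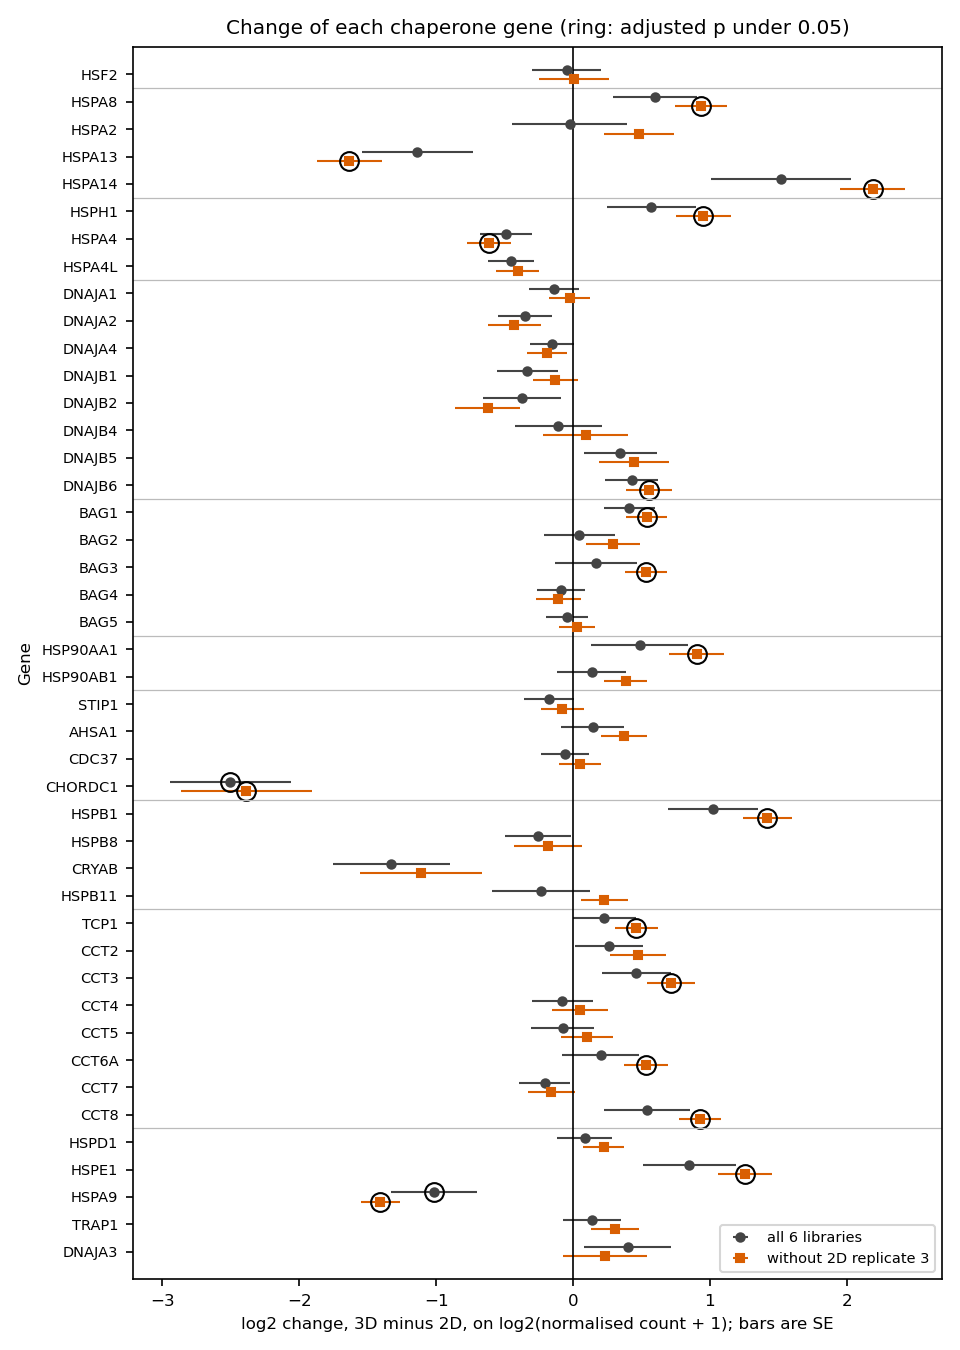
Change of each gene (log2, 3D minus 2D, on log2(normalised count + 1)) with all 6 libraries (circles) and without 2D replicate 3 (squares); bars are standard errors and rings mark an adjusted p under 0.05. With all libraries only CHORDC1 and HSPA9 are ringed, and without 2D replicate 3 a total of 17 genes are.

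Of the heat shock factors, HSF2 was measured, at 176, 147 and 179.9 in 2D and 204, 128 and 162 in 3D (normalised counts, here and below in the order of replicates 1, 2 and 3). The cultures overlapped. Its log2 change was -0.05 (SE 0.25, adjusted p = 0.91), 95% interval -0.63 to 0.53.

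Of the 4 HSP70 proteins outside mitochondria, none passed with all libraries, and without 2D replicate 3 HSPA8 and HSPA14 rose and HSPA13 fell. HSPA8 (ENSG00000109971, chromosome 11, 123057489 to 123063230, GRCh38), the constitutive HSC70 and one of the most abundant members per kilobase of exon (3677 normalised counts per kilobase in 2D and 5298 in 3D), had 14659.9, 12122 and 26705 in 2D and 22773, 30485 and 23816 in 3D. 2D replicate 3 lay within the range of the spheres. The log2 change was 0.60 (SE 0.31, adjusted p = 0.18) with all libraries and 0.93 (SE 0.19, adjusted p = 0.0044) without it. HSPA14, an HSP70-like protein of the ribosome-associated complex, had 62.9, 81.1 and 291 in 2D and 334, 391 and 274 in 3D, so that 2 adherent libraries were far below and 2D replicate 3 was within the range of the spheres. Its changes were 1.52 (SE 0.51, adjusted p = 0.062) and 2.19 (SE 0.24, adjusted p = 0.00024). The windows of 75 bases in its transcripts that also occur in another annotated gene make up 15.1%, all in a second annotated gene of the same name.

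HSPA13, an HSP70 relative found with microsomes, went the other way. It had 4115, 3744 and 1397 in 2D and 1188, 1770.1 and 962 in 3D, the 2 highest values being those of 2D replicates 1 and 2. The log2 change was -1.14 (SE 0.41, adjusted p = 0.073) and, without 2D replicate 3, -1.63 (SE 0.24, adjusted p = 0.00098). HSPA2, a form best known from the testis, had 921, 757 and 2394 in 2D and 1414, 805 and 1397 in 3D, with its peak in 2D replicate 3 and a change of -0.02 (SE 0.42, adjusted p = 0.97).

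None of the 3 HSP110 proteins, nucleotide exchange factors of HSP70, passed with all libraries. HSPH1, the stress-inducible HSP105, had 1424, 1369 and 3081 in 2D and 2307, 3556 and 2411 in 3D. Its change of 0.57 (SE 0.33, adjusted p = 0.22) became 0.95 (SE 0.20, adjusted p = 0.0054) without 2D replicate 3. HSPA4 had 5812, 5806 and 4499 in 2D and 3414, 4538 and 3534 in 3D, with all spheres below 2D replicates 1 and 2 and 3D replicate 2 just above 2D replicate 3. It went from -0.49 (SE 0.19, adjusted p = 0.091) to -0.61 (SE 0.16, adjusted p = 0.015), so HSPH1 rose and HSPA4 fell in that fit. HSPA4L had 1039.8, 1266 and 1272 in 2D and 941, 854 and 811 in 3D, without overlap, and a change of -0.45 (SE 0.17, adjusted p = 0.079) that did not pass.

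Of the 8 J-domain co-chaperones, none passed with all libraries and DNAJB6 rose without 2D replicate 3. DNAJB6, which keeps aggregation-prone proteins soluble, had 1234, 1183 and 1581 in 2D and 1656, 2139 and 1588 in 3D. Every sphere library was above every adherent one, by a narrow margin over 2D replicate 3. The change was 0.43 (SE 0.19, adjusted p = 0.13) and then 0.56 (SE 0.17, adjusted p = 0.026). DNAJA1, a main partner of HSPA8 and the J-domain gene with the most reads, had 6745, 6047 and 8079.6 in 2D and 5752, 7001 and 6156 in 3D, overlapping, with a change of -0.14 (SE 0.18, adjusted p = 0.61), 95% interval -0.55 to 0.28. DNAJB1, the classic heat-inducible HSP40, had 3209, 2534 and 4360.04 in 2D and 2398, 2962 and 2494 in 3D, and its highest value was again in 2D replicate 3. Its change was -0.33 (SE 0.22, adjusted p = 0.29), 95% interval -0.84 to 0.17. The other 5 (DNAJA2, DNAJA4, DNAJB2, DNAJB4 and DNAJB5) had log2 changes of -0.38 to 0.35, with adjusted p of 0.22 to 0.83. DNAJA4 was lower in every sphere library, at 672, 653 and 715 against 779.6, 773 and 718, and did not pass.

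BAG proteins bind the ATPase domain of HSP70 through their BAG domain. BAG1 (which also binds BCL2) had 4998, 4180.4 and 5935 in 2D and 6437, 6337 and 7170.1 in 3D, with no overlap, and changed by 0.41 (SE 0.18, adjusted p = 0.13), and by 0.54 (SE 0.15, adjusted p = 0.018) without 2D replicate 3. BAG3, the stress-induced member that works with HSPB8 in selective autophagy, had 719, 729 and 1559.6 in 2D and 929.7, 1115 and 1117 in 3D. Here 2D replicate 3 exceeded all spheres, and without it the change went from 0.17 (SE 0.30, adjusted p = 0.71) to 0.54 (SE 0.15, adjusted p = 0.021). BAG4 and BAG5 had changes of -0.09 (SE 0.18, adjusted p = 0.74), 95% interval -0.48 to 0.31, and -0.04 (SE 0.15, adjusted p = 0.86), 95% interval -0.39 to 0.31. BAG2, an inhibitor of the ligase CHIP, changed by 0.05 (SE 0.26, adjusted p = 0.91) but is uncertain, because 42.4% of its windows are shared, chiefly with RAB23 on the opposite strand, and the kit does not mark strand.

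Neither cytosolic HSP90 form passed with all libraries, and HSP90AA1 rose without 2D replicate 3. HSP90AA1, the inducible form, had 11752, 10917 and 26957 in 2D and 18168, 26945 and 19413 in 3D. 2D replicate 3 was level with the highest sphere library and far above the other adherent ones. Its change of 0.49 (SE 0.36, adjusted p = 0.34) became 0.90 (SE 0.20, adjusted p = 0.0066) without that library. HSP90AB1, the constitutive form, had the highest level per kilobase of all members, 6648 in 2D and 7091 in 3D. It had 17299, 15096 and 27041 in 2D and 19889, 22229.8 and 21278 in 3D and passed in neither fit, with changes of 0.14 (SE 0.25, adjusted p = 0.71) and 0.39 (SE 0.16, adjusted p = 0.074). Reads of HSP90AA1 per read of HSP90AB1 were 0.679, 0.723 and 0.997 in 2D and 0.913, 1.21 and 0.912 in 3D (exact permutation test, 2-sided p = 0.30, where 3 against 3 libraries cannot go below 0.10).

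CHORDC1 (CHP-1, ENSG00000110172, chromosome 11, 90201160 to 90223364) was the member with the largest change. It encodes a zinc-binding HSP90 co-chaperone that is itself induced by heat. It had 392, 905 and 761 normalised counts in 2D replicates 1, 2 and 3 and 206, 103 and 68.1 in the 3D replicates. All spheres were below all adherent libraries, and the means were 686 ± 265 in 2D and 126 ± 71.7 in 3D (SD, n = 3 each). The log2 change was -2.50 (SE 0.44, adjusted p = 0.0070), and it passed in every fit with 1 library left out (adjusted p of 0.0045 to 0.034). Unlike most members, 2D replicate 3 was with the other adherent libraries for CHORDC1, between replicates 1 and 2.

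None of the other 3 HSP90 co-chaperones passed with all libraries. STIP1 (HOP), which joins HSP70 to HSP90, had 8059.97, 6457 and 8792 in 2D and 6331, 7169.5 and 7035 in 3D and a change of -0.17 (SE 0.18, adjusted p = 0.51), 95% interval -0.59 to 0.24. AHSA1, which stimulates the HSP90 ATPase, changed by 0.14 (SE 0.23, adjusted p = 0.68), 95% interval -0.39 to 0.67. CDC37, which loads kinases, changed by -0.06 (SE 0.18, adjusted p = 0.83), 95% interval -0.47 to 0.35. Nor did they pass without 2D replicate 3 (adjusted p = 0.71, 0.10 and 0.80).

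None of the 4 small heat shock proteins passed with all libraries, and HSPB1 rose without 2D replicate 3. HSPB1 (HSP27, ENSG00000106211, chromosome 7, 76302544 to 76304295), a holdase that also binds actin filaments, had 3958, 3229 and 8129.96 normalised counts in 2D replicates 1, 2 and 3 and 8039, 10976 and 9912 in the 3D replicates. 2D replicates 1 and 2 were far below all spheres, and 2D replicate 3 lay just above 3D replicate 1. The change just missed the threshold with all libraries, at 1.02 (SE 0.33, adjusted p = 0.052), and passed without 2D replicate 3, at 1.42 (SE 0.18, adjusted p = 0.00047). With all 6 libraries it passed in DESeq2 (adjusted p = 0.027), with equal library totals (0.036), with no filter (0.049) and with a pseudocount of 10 (0.0498). It did not pass in edgeR (0.068), with TMM (0.0534), with a pseudocount of 0.1 (0.0553), with a mean of at least 50 (0.0551) or with a robust prior (0.0514). CRYAB, the alpha B-crystallin chain, was scarce: it had 34.3, 23.5 and 45.2 in 2D and 16.7, 9.69 and 12.4 in 3D, every sphere library being below. Its change of -1.33 (SE 0.43, adjusted p = 0.054) did not pass. It passed in DESeq2 (adjusted p = 0.046) and in limma with a pseudocount of 10 (0.044), and did not in edgeR (0.0525) or with no filter (0.0839). HSPB8 had 580.4, 409.9 and 566 in 2D and 342, 561 and 412 in 3D and a change of -0.26 (SE 0.24, adjusted p = 0.46). HSPB11, which despite its name is a subunit of intraflagellar transport, had 388, 341 and 955 in 2D and 411, 459 and 411 in 3D, far the most in 2D replicate 3, and a change of -0.23 (SE 0.36, adjusted p = 0.66).

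**Figure D3:**
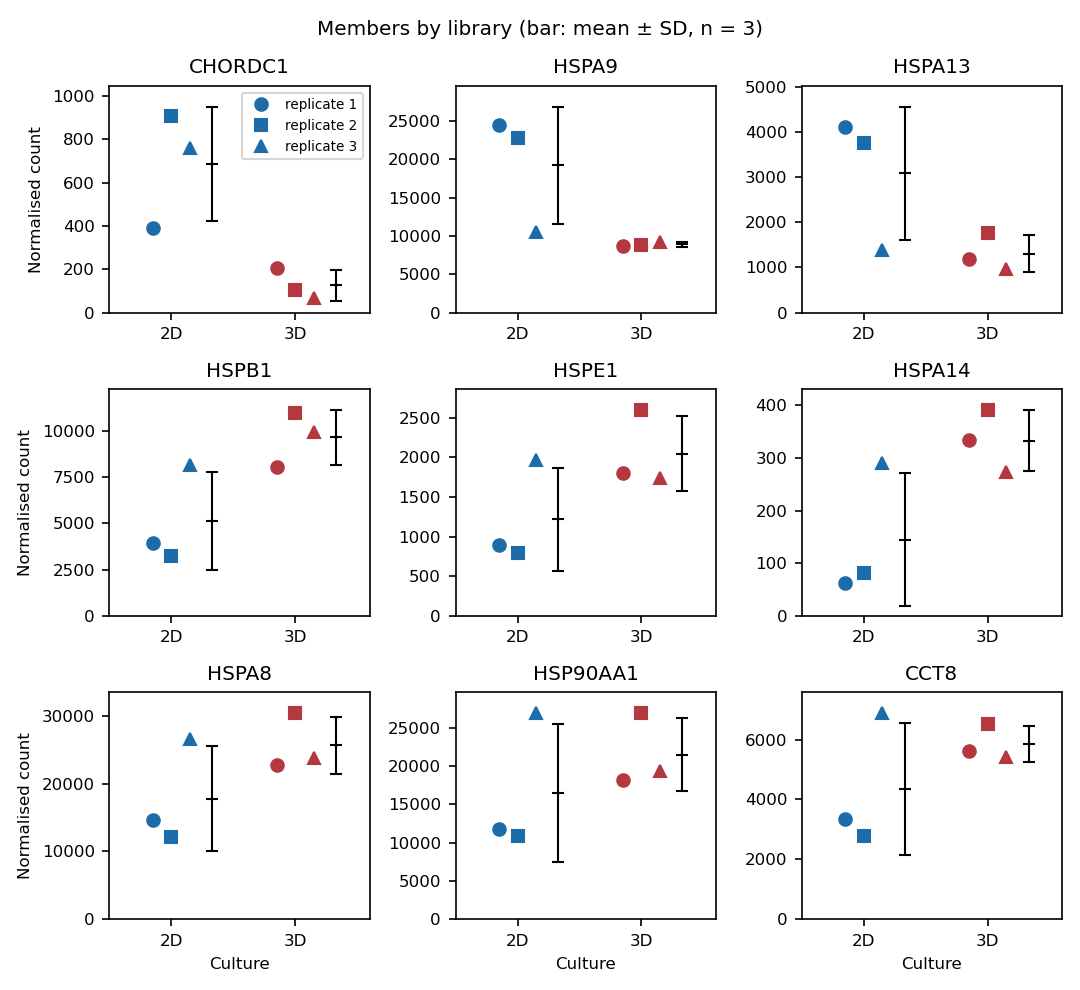
Normalised counts of 9 members in each library (2D blue, 3D red; circle, square and triangle are replicates 1, 2 and 3), with mean ± SD, n = 3, beside them; each axis starts at 0. CHORDC1 separates the cultures, while in the other 8 panels 2D replicate 3 (blue triangle) lies within or close to the range of the 3D points.

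The 8 CCT subunits build the rings of 1 chaperonin. None passed with all libraries (median log2 change 0.22), and without 2D replicate 3 CCT8, CCT3, CCT6A and TCP1 rose (median 0.47). CCT8, the theta subunit, had 3359.5, 2794 and 6887 in 2D and 5605, 6523 and 5426 in 3D, with changes of 0.54 (SE 0.31, adjusted p = 0.23) and 0.93 (SE 0.16, adjusted p = 0.0019). CCT3 had 6499, 5167 and 9799 in 2D and 8442, 11162 and 9154 in 3D, with 0.46 (SE 0.25, adjusted p = 0.21) and 0.72 (SE 0.18, adjusted p = 0.011). CCT6A had 4264, 3869.7 and 8049.8 in 2D and 5368, 6912 and 5464 in 3D and changed by 0.20 (SE 0.28, adjusted p = 0.62) and then 0.53 (SE 0.16, adjusted p = 0.026). TCP1, the alpha subunit, had 3118, 2651 and 4651 in 2D and 3585, 4482 and 3859 in 3D, with 0.23 (SE 0.23, adjusted p = 0.48) and 0.46 (SE 0.16, adjusted p = 0.040). In each of these 4 genes the value of 2D replicate 3 exceeded at least 2 of the 3 sphere libraries.

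The other 4 CCT genes passed in neither fit. CCT7, the subunit with the most reads, had 10821, 8611 and 10671 in 2D and 7704, 9809 and 8550.2 in 3D and a change of -0.21 (SE 0.19, adjusted p = 0.44), 95% interval -0.63 to 0.22. CCT4 changed by -0.08 (SE 0.22, adjusted p = 0.82), CCT2 by 0.27 (SE 0.25, adjusted p = 0.46) and CCT5 by -0.07 (SE 0.23, adjusted p = 0.84). CCT5 is uncertain, since 27.6% of its windows are shared with a gene on the opposite strand. Per kilobase of exon, the subunits ran from 705 (TCP1) to 2794 (CCT7) normalised counts in 2D and from 807 (TCP1) to 2419 (CCT7) in 3D. The direction of CCT4 and CCT5 turned positive with equal library totals (0.06 each).

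Of the 5 mitochondrial chaperones, HSPA9 fell, and without 2D replicate 3 HSPE1 also rose. HSPA9 (mortalin, ENSG00000113013, chromosome 5, 138553756 to 138575724), which pulls proteins through the inner membrane and folds them, had 24466, 22765 and 10491 normalised counts in 2D replicates 1, 2 and 3 and 8646, 8827 and 9227 in the 3D replicates. Every sphere library was lower, but 2D replicate 3 was much nearer to them than to its own group, and the means were 19241 ± 7625 in 2D and 8900.3 ± 297 in 3D (SD, n = 3 each). The log2 change was -1.02 (SE 0.31, adjusted p = 0.047). It passed without 2D replicate 3, at -1.41 (SE 0.14, adjusted p = 0.00017), and in none of the 5 fits with another library left out (adjusted p of 0.00017 to 0.15 over the 6), nor with equal library totals.

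HSPD1 (HSP60), the mitochondrial chaperonin, had 16635, 14922 and 21028 in 2D and 18581, 18867 and 17770.4 in 3D and a change of 0.09 (SE 0.20, adjusted p = 0.78), 95% interval -0.38 to 0.55. HSPE1 (HSP10), its lid and head-to-head neighbour, had 896, 791 and 1966 in 2D and 1799.97, 2598 and 1743 in 3D, and changed by 0.85 (SE 0.34, adjusted p = 0.097), then by 1.26 (SE 0.20, adjusted p = 0.0014) without 2D replicate 3. Of its windows 18.0% are shared with other genes. Reads of HSPE1 per read of HSPD1 were 0.0539, 0.0530 and 0.0935 in 2D and 0.0969, 0.138 and 0.0981 in 3D, without overlap (exact permutation test, 2-sided p = 0.10, the smallest that this design allows). HSPA9 per HSPD1 was 1.47, 1.53 and 0.499 in the adherent libraries and ran from 0.465 to 0.519 among the spheres (exact permutation test, p = 0.20). Of 5 such ratios computed, the other two were HSPH1 to HSPA4 (0.245, 0.236 and 0.685 in 2D, 0.676 to 0.784 in 3D, p = 0.30) and HSPA8 to HSPA9 (0.599, 0.532 and 2.55 in 2D, 2.58 to 3.45 in 3D, p = 0.10), by the same exact permutation test. Adjusted over the 5 they were 0.25 or 0.30. All 5 ratios were chosen after their values were seen, so these p-values describe the ratios and give them no support. TRAP1, the mitochondrial HSP90, changed by 0.14 (SE 0.21, adjusted p = 0.66) and DNAJA3, a mitochondrial J-domain protein, by 0.40 (SE 0.32, adjusted p = 0.38), both with overlap.

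Other genes of the same system were taken from 7 further lists, of which 75 had a row and 69 were tested. With all libraries 5 rose and 4 fell, where 12.5% and 11.6% of all genes did. Without 2D replicate 3, 13 rose and 11 fell, where 22.6% and 23% of all genes did. HSPB7, a small heat shock protein best known from heart, rose from 2.86, 5.34 and 8.22 to 59.4, 48.5 and 54.7. Its log2 change was 3.18 (SE 0.46, limma adjusted p = 0.0031). The 2D mean of HSPB7, 5.47, was below the filter for testing, which it passed only through its 3D values. The size of its rise is therefore uncertain. PFDN4, a prefoldin subunit that hands actin and tubulin to CCT, had 222, 306 and 366 in 2D and 744, 1303 and 417 in 3D. It rose by 1.34 (SE 0.39, limma adjusted p = 0.039). That rise did not pass in every fit with 1 library left out (highest limma adjusted p of 0.13). AHSA2P, DNAJB13 and HSF4 rose by 2.24, 2.14 and 1.90 (limma adjusted p = 0.0045, 0.022 and 0.016). All are uncertain, with 29.99%, 20.5% and 21.3% of windows shared with an overlapping gene. DNAJB13 and HSF4 also did not pass in every fit with 1 library left out (highest limma adjusted p of 0.10 and 0.076).

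Those that fell were DNAJC6 (auxilin, which uncoats clathrin vesicles with HSC70), with 554, 504 and 573 in 2D and 164, 197 and 154 in 3D, NUDCD3, an HSP90 co-chaperone of the NUDC family, the mitochondrial protease LONP1, and CCT6B. DNAJC6 changed by -1.66 (SE 0.20, adjusted p = 0.0014) and passed in every fit with a library left out. LONP1 had 7549, 6714 and 2872 in 2D and 2159, 1868 and 2496 in 3D, with 2D replicate 3 near the spheres as for HSPA9, and changed by -1.28 (SE 0.34, adjusted p = 0.030). NUDCD3 and CCT6B changed by -1.13 and -1.81 (adjusted p = 0.017 and 0.048). CCT6B was scarce, with 30.5, 17.1 and 9.25 in 2D and 4.64, 4.85 and 3.10 in 3D. Its mean over all libraries, 11.6, was just above the filter for testing, and its 3D mean of 4.19 was below it. Its fall is therefore uncertain. Unlike DNAJC6, these genes did not pass in every fit with a library left out. The highest adjusted p was 0.069 for NUDCD3, 0.10 for LONP1 and 0.19 for CCT6B. With 1 library other than 2D replicate 3 left out, 2 to 5 of the 69 were called higher and 1 to 3 lower. In those fits 3.42% to 10.1% of all genes were called higher and 4.21% to 9.03% lower. HSPA6, the strictly heat-inducible HSP70, had 25.7, 8.54 and 56.5 in 2D and 26.9, 31.0 and 46.5 in 3D, and its change of 0.51 (SE 0.63, adjusted p = 0.58) did not pass. HSPA1B had at most 1.07 normalised counts in any library, and 73.2% of its windows also occur elsewhere, chiefly in HSPA1A, so its level is uncertain.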

How the data were processed

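RNA of 6 libraries was sequenced, 3 of 2D and 3 of 3D culture, with groups and replicate numbers taken from the titles. Per the labels' protocols, libraries came from the Illumina TruSeq RNA kit (v2), which does not mark strand. The tools in the submitters' processing notes are HISAT2, featureCounts 1.5.0 and DESeq2, and the build there is GRCh38. Settings and annotation release: not given in the sources used here. As for its unit, the deposited signal is reads divided by 1 factor per library: 100% of values were whole multiples of 1 step within 0.01 of a read, so whole reads could be recovered. 6 empty columns were not used. Symbols were found for 26506 of 26748 genes, coordinates and exon lengths came from GENCODE 29, and HSPB11 was matched by its GENCODE name.

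The test ran on the 15598 genes, all 44 members among them, whose normalised count averaged 10 or more. It used limma 3.58.1 under R 4.3.3, after taking log2(value + 1), with a mean-variance trend, the culture alone in the model, p adjusted by Benjamini-Hochberg and a threshold of 0.05. Such log2 changes understate those of low genes. The p-values measure the spread between libraries, since nothing says that the replicates were separate cultures. Members and lists were chosen with earlier results of these data known. Members called with or without 2D replicate 3 and the highest of each role are given in full; HSPA1B, HSPA6 and the ratios were chosen after their values were seen. Alternatives were other pseudocounts, filters and scalings, a replicate block, a robust variance prior, recovered reads in edgeR 4.0.16 (which called 1944 genes higher and 1713 lower) and DESeq2 1.42.0, a stricter threshold, and leaving libraries out. Genes with over 20% of 75-base windows shared with another gene are called uncertain. Tested on simulated counts for this comparison with 200 changed genes, the fit recovered 46% of those changed by 1 and 95% of those changed by 2 (log2). The simulation used 1 dispersion for all genes, no library that stood apart, and far fewer changed genes than were called here. Its rates are therefore a rough guide only.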

Additional observations from a re-analysis of the deposited data

How the results depend on the processing

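Of the members' calls, the fall of CHORDC1 held when any 1 library was left out, and that of HSPA9 did not hold without any library other than 2D replicate 3. The members called were 1 higher and 3 lower with a pseudocount of 10 (13% and 11.9% of all genes), 1 and 2 with no filter (8.59% and 6.32%), 1 and 1 with equal library totals (15.3% and 8.03%), and 1 and 4 in DESeq2 (15.5% and 14.9%). Members without overlap numbered 1 higher and 6 lower with TMM (19.9% and 23.3% of all genes), and 4 higher and 3 lower with equal library totals (25.4% and 16.4%), which moved the median of all genes from -0.02 to 0.11. At an adjusted p under 0.01, 541 genes were higher and 580 lower, 1 member was lower, and 2 other chaperone genes were higher and 1 lower. Leaving out 1 library gave 534 to 3526 genes higher and 656 to 3585 lower, 0 to 13 members higher and 1 to 4 lower, 2 to 13 other chaperone genes higher and 1 to 11 lower, and 2 to 19 members higher and 5 to 12 lower without overlap (22.3% to 32.6% and 24.3% to 34.4% of all genes). In each of these ranges but the last, the highest value was that without 2D replicate 3. Leaving out 2D replicate 3 and 3D replicate 2 together gave 4436 genes higher and 4605 lower (28.4% and 29.5%), 16 members higher and 7 lower, 16 other chaperone genes higher and 19 lower, and 22 members higher and 12 lower without overlap (38.5% and 40.5% of all genes). With the replicate block, 2 members (HSPB1 and HSPA14) were higher and 3 lower, against 11.2% and 9.45% of all genes. HSPA13 was among those lower, at an adjusted p of 0.0189 in limma. Deviations of same-numbered libraries correlated at -0.08, -0.14 and 0.04, and those of other pairs at -0.10 to 0.18. Such values neither show nor exclude a pairing by replicate number, and the labels name none. The cause of the shifts between settings was not tested.

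Members near 0 change turned direction, none of them called with all libraries. With equal library totals the log2 change was 0.0846 for HSF2, 0.11 for HSPA2, 0.0260 for DNAJB4, 0.0464 for BAG4, 0.0909 for BAG5, 0.0732 for CDC37, 0.0551 for CCT4 and 0.0585 for CCT5. HSF2 was at 0.0094 in edgeR and 0.0046 in DESeq2. Without both libraries HSF2 was at 0.17, HSPA2 at 0.75 (where it passed), BAG5 at 0.05, CDC37 at 0.0754 and HSPB11 at 0.18. TRAP1 kept its direction there, at 0.44. With 1 library left out the log2 change ran from -0.21 to 0.12 for HSF2, -0.35 to 0.48 for HSPA2, -0.44 to 0.15 for DNAJB4, -0.14 to 0.29 for BAG2, -0.0224 to 0.54 for BAG3, -0.0797 to 0.0287 for BAG5 and -0.17 to 0.0534 for CDC37. It ran from -0.0350 to 0.39 for HSP90AB1, -0.0418 to 0.37 for AHSA1, -0.51 to 0.23 for HSPB11, -0.26 to 0.0505 for CCT4, -0.24 to 0.10 for CCT5, -0.0235 to 0.22 for HSPD1 and -0.0082 to 0.31 for TRAP1. With 3 libraries a group, changes of 1 on the log2 scale were often missed on simulated counts, so a member that did not pass is not shown to be unchanged.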
